A study of Mus musculus with 18 samples.

Results

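Vascular calcification is the laying down of calcium phosphate in the arterial wall, and 10 genes tied to it or to bone formation were followed here: Spp1, Mgp, Alpl, Enpp1, Ank, Bmp2, Bmp4, Runx2, Sox9 and Msx2. They were chosen by name as genes of this process, with earlier results of these data known. Each matched 1 row of the deposited table of 21959 genes. The data are 18 RNA sequencing libraries of MOVAS cells, an immortalised line of mouse aortic smooth muscle cells, in 6 groups of 3. The groups were Dox with isoliensinine (titled D_I), Dox, H2O2 with isoliensinine (H_I), H2O2, isoliensinine alone (B_I) and untreated controls (Blank). Dox is doxorubicin, a drug that damages DNA, and H2O2 is hydrogen peroxide, an oxidant. The study used each of them to drive the cells into senescence, a lasting arrest of cell division. Isoliensinine is an alkaloid of the lotus seed embryo. The D_I, H_I and B_I libraries are labelled only as isoliensinine-treated, and their inducer was read from the parallel titles. The same cell line carried all 6 groups, the design text calls the replicates biological, and no source used here gives doses, treatment times or whether cultures were prepared separately. P-values therefore measure the spread between these libraries.

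In arteries as in bone, mineral grows where phosphate is plentiful and inorganic pyrophosphate, the main small inhibitor of crystal growth, is scarce. Enpp1 makes pyrophosphate outside the cell, Ank passes pyrophosphate or its precursor ATP out of the cell, and Alpl breaks pyrophosphate down. Mgp and Spp1 are secreted proteins that bind mineral and restrain its growth, while bone morphogenetic proteins act through the transcription factors Runx2, Msx2 and Sox9 that set bone and cartilage programmes.

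Promoters are shown for 3 members whose levels the results turn on: Spp1 and Alpl, called higher under both inducers, and Ank, called lower under Dox. Sequences are 5′ to 3′ on the gene's strand, from 250 bases before to 50 bases after the start, from RefSeq on build GRCm38.p6, where 7 of the 10 members matched with 9 starts (Bmp2, Mgp and Sox9 did not). Capitals mark the RUNX core TGTGGT or its complement ACCACA, and the GC-rich word GGCGCC bound by BMP-responsive SMAD proteins. The Spp1 window lies at chr5:104434861-104435160 on the plus strand, the Alpl window at chr4:137796335-137796634 on the minus strand and the Ank window at chr15:27466427-27466726 on the plus strand. For Spp1 and Alpl the more upstream of 2 listed starts is printed.
Spp1: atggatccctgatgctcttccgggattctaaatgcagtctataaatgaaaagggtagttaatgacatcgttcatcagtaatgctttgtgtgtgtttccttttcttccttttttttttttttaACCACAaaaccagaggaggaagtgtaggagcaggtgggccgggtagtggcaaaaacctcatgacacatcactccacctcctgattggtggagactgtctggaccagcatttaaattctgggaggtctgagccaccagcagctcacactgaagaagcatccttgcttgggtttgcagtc
Alpl: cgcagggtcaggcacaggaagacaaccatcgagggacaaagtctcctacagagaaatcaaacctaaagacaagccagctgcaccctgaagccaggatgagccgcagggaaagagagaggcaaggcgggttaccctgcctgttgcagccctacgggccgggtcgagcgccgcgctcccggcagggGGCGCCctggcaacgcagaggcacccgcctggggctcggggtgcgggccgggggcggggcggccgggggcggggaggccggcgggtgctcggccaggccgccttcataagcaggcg
Ank: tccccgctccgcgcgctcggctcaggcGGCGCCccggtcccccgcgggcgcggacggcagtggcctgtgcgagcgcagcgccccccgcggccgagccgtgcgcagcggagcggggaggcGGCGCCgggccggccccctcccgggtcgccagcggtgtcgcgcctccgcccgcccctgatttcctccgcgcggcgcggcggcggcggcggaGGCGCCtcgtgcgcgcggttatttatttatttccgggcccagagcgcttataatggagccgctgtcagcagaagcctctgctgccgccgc
The Spp1 window had 45.3% G and C and 1 RUNX match, which began 128 bases before the start. The Alpl window had 70% G and C and 1 GGCGCC match, and the Ank window had 78% G and C and 3 such matches. No capitalised match overlapped another. On both strands, the RUNX core was present in 16.8% and GGCGCC in 11.9% of all 32851 RefSeq promoter windows of that length, whose median G and C content was 52.7%. The RUNX core was present at 3 of the 9 member starts, the others being those of Enpp1 and Runx2, and GGCGCC at 2. The AP-1 word TGANTCA was at 0 of the 9 starts, against 7.81% of all windows, and TATAAA at 2, against 13.6%. These matches describe letters in a window and nothing was measured at them.

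Libraries held 12859609 to 23284077 counted reads. The Dox libraries held at least 20140802 and the other groups at most 17955971. Levels below are reads scaled to library size by edgeR's TMM factors (CPM) unless FPKM, which is also scaled to gene length, is named, and SDs are over n = 3. A gene is called where edgeR's quasi-likelihood test gave a Benjamini-Hochberg adjusted p under 0.05 over the 13375 genes that passed a filter on low counts. Of the 10 members, 9 passed that filter, and Msx2 did not. Along the main axis of variation of all genes (23.5% of variance), Blank4 and B_I3 stood at -69.7 and -61.3, against -6 and -14.1 for the other Blank libraries and -1.2 and -36.2 for B_I1 and B_I2. Those libraries also held the most Acta2, smooth muscle actin, with 4514 CPM in Blank4 and 3875 CPM in B_I3, against 806 and 901 CPM in the other Blank libraries and 1122 and 1178 CPM in the other B_I libraries. The defining smooth muscle markers Tagln and Myocd were near 0 in every library, at most 0.809 and 0.71 CPM. The 12 smooth muscle markers together summed to 2422 to 2784 CPM in Dox against 1508 to 5357 CPM in Blank. In D_I they summed to 1481 to 1722 CPM, below every Dox library, and Acta2 made up most of the sum in every library. Of the 10 smooth muscle markers that passed the filter, edgeR called 3 higher and 0 lower in Dox against Blank, beside 10.3% and 11.4% of all tested genes. The 3 were Cnn1 (2.67-fold), Mylk (1.99-fold) and Cald1 (1.97-fold). Markers of colon epithelium summed to 808 CPM in H_I1, against 250 and 310 CPM in the other H_I libraries, and to 185 CPM in H2O2 library 3, against 50 and 61 CPM in its group. The sum was uneven elsewhere too, at 280 CPM in B_I1 (110 and 70.5 CPM in its group), 269 CPM in Dox library 1 (98.2 and 152 CPM) and 204 CPM in Blank1 (140 and 60.9 CPM). Values without Blank4, B_I3, H_I1 and H2O2 library 3, called the 4 libraries below, stand beside several of the results. That exclusion was chosen after seeing the data and leaves fewer libraries in those 4 groups.

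On the per-length FPKM scale, 3 members were abundant in every group and the rest were low. Mgp, Ank and Spp1 averaged 265, 64.1 and 16.8 FPKM in Blank cells, where Mgp ranked 189th and Spp1 2884th of 21959 genes. In Dox cells the order was Mgp, Spp1, Ank, at 113, 90.8 and 54.3 FPKM, and Spp1 ranked 619th. The Mgp and Spp1 ranges overlapped in Dox cells, at 99.1 to 124 FPKM for Mgp and 80.2 to 102 FPKM for Spp1, whereas Spp1 and Ank were separate. D_I cells had the same order with separate ranges, at 138, 72.5 and 56.1 FPKM. In H_I, H2O2 and B_I cells, as in Blank cells, Ank stood above Spp1 with no overlap. Bmp4, Alpl, Sox9 and Runx2 lay between 0.981 and 5.58 FPKM as group means, Enpp1 at most at 0.521 FPKM, and Bmp2 and Msx2 at or near 0.

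**Figure D1:**
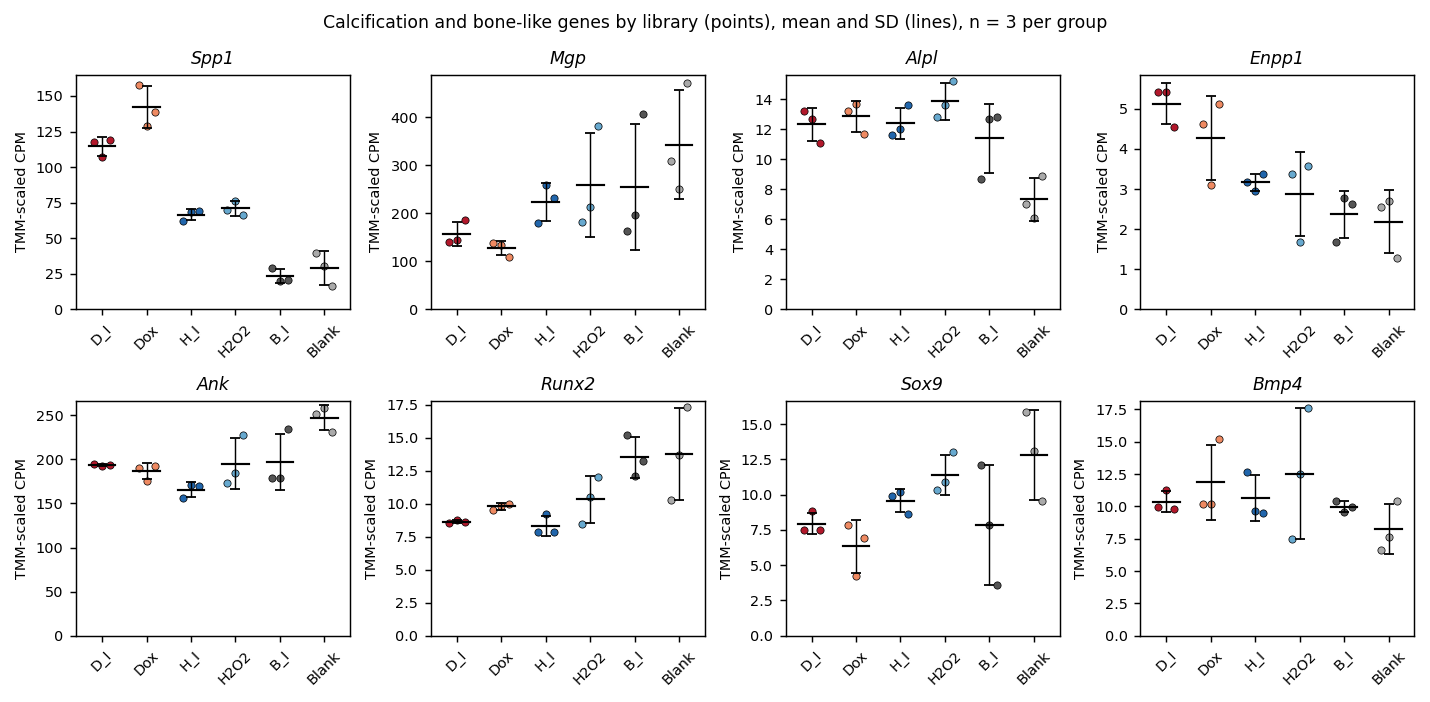
Level of the 8 genes with a usable fold in every library, in TMM-scaled CPM on a linear axis from 0, with 1 panel per gene and the groups in the order D_I, Dox, H_I, H2O2, B_I, Blank. Points are libraries and lines the group mean and SD (n = 3): Spp1 lies between 107 and 158 CPM in the 6 libraries given Dox, above the 16.5 to 39.9 CPM of the 6 libraries given no inducer.

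Spp1 encodes osteopontin (ENSMUSG00000029304, chromosome 5, 104582984 to 104588916, plus strand). These coordinates, like those below, are as deposited, on a build that no source used here names. Of the 8 members with a usable fold, it had the largest log2 difference from Blank under Dox and under H2O2. Spp1 stood at 158, 129 and 139 CPM in the Dox libraries, against 39.9, 30.8 and 16.5 CPM in Blank. All 3 Dox libraries lay above all Blank libraries, and Blank4, which stood apart, was the lowest of all. Under H2O2 it reached 69.9, 76.4 and 66.6 CPM, again above every Blank library and below every Dox library.

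Relative to Blank, Spp1 rose 4.87-fold under Dox (log2 difference 2.28, 95% interval 1.86 to 2.71, edgeR adjusted p = 1.49e-07). Under H2O2 it rose 2.43-fold (1.28, interval 0.86 to 1.71, edgeR adjusted p = 0.00161). The direct comparison of Dox with H2O2 gave a 2-fold higher level under Dox (1.0, interval 0.59 to 1.41, edgeR adjusted p = 0.00169). Without the 4 libraries that stood apart, the log2 differences from Blank were 2.0 under Dox and 1.07 under H2O2. Fitted on the H2O2 and Blank libraries alone, the H2O2 call was lost (edgeR adjusted p = 0.194), in a fit that called 5 genes in all.

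Spp1 is also made by macrophages and osteoclasts. Of 12 macrophage markers, 10 passed the filter. In Dox against Blank Cd68 was called higher and Lgals3 lower, where 10.3% and 11.4% of all tested genes were. Cd68, a lysosomal protein rich in macrophages, averaged 18 ± 4.99 CPM in Dox and 4.21 ± 2.8 CPM in Blank, 4.21-fold higher (edgeR adjusted p = 0.000827). It was also called higher in D_I against B_I (7.1-fold) and in H_I against B_I (3.39-fold), where Spp1 was called higher too. Cd68 was not called in H2O2 against Blank or in Dox against H2O2, where Spp1 also rose. Lgals3 was called lower again in Dox against H2O2 and in D_I against B_I (log2 differences -0.58 and -0.62). The 12 markers' summed level was 372 to 415 CPM in Dox against 426 to 611 CPM in Blank. That sum was mostly Lgals3, at 313 to 619 CPM over all libraries, while the defining markers Adgre1 and Itgam reached at most 1.11 and 0.607 CPM. The part of such cells in the Spp1 levels was not tested. The osteoclast list summed to 31.4 to 34.8 CPM in Dox against 19.2 to 29.8 CPM in Blank, and 3 of its 8 genes passed the filter. Nfatc1 made up most of that sum, at 18.1 to 36.7 CPM over all libraries, and no other gene of the list exceeded 2.33 CPM. Ctsk, Calcr and Dcstamp reached at most 0.405, 0.283 and 0.311 CPM. In bulk RNA, more cells that express a gene and more RNA of it per cell cannot be told apart.

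Mgp encodes matrix Gla protein, a vitamin K-dependent inhibitor of arterial calcification (ENSMUSG00000030218, chromosome 6, 136849433 to 136852821, minus strand). It had 138, 135 and 110 CPM in Dox, against 309, 250 and 471 CPM in Blank, with every Dox library below every Blank library. Mgp fell 2.69-fold under Dox (log2 difference -1.43, interval -2.14 to -0.71, edgeR adjusted p = 0.00603). Under H2O2 the libraries held 182, 213 and 382 CPM, overlapping Blank, and the difference of -0.41 was not called (edgeR adjusted p = 0.659). That difference was -0.11 without Blank4, -0.80 without H2O2 library 3 and -0.48 without the 4 libraries. Blank4, B_I3 and H2O2 library 3 held the most Mgp in their groups, at 471, 406 and 382 CPM. Without Blank4 the Dox difference was -1.16 (edgeR adjusted p = 0.0446), and without all 4 libraries -1.14 (edgeR adjusted p = 2.21e-06).

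Alpl, the tissue-nonspecific alkaline phosphatase (ENSMUSG00000028766, chromosome 4, 137469044 to 137523695, minus strand), was low and rose under both inducers. Dox libraries had 13.2, 13.7 and 11.7 CPM and H2O2 libraries 12.8, 13.6 and 15.2 CPM, against 7.04, 6.1 and 8.87 CPM in Blank. Neither inducer's range touched that of Blank, while the ranges of Dox and H2O2 overlapped. The rise was 1.76-fold under Dox (log2 difference 0.81, edgeR adjusted p = 0.00502) and 1.89-fold under H2O2 (0.92, edgeR adjusted p = 0.0217). The H2O2 call rested on single libraries, since edgeR's adjusted p was 0.0753 without Blank1, 0.0837 without Blank2, 0.0517 without H2O2 library 2 and 0.0631 without H2O2 library 3. It was also lost when only H2O2 and Blank were fitted (edgeR adjusted p = 0.424).

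Both genes on the pyrophosphate-supplying side were measured. Ank, a transporter in the plasma membrane (ENSMUSG00000022265, chromosome 15, 27466763 to 27594995, plus strand), had 190, 176 and 193 CPM in Dox, against 252, 258 and 231 CPM in Blank. The groups did not overlap in CPM, and Ank fell 1.33-fold under Dox (log2 difference -0.41, interval -0.64 to -0.18, edgeR adjusted p = 0.011). In deposited FPKM, which carries no TMM scaling, the groups did overlap, at 49.8 to 57.3 in Dox and 54.2 to 70.2 in Blank, and limma did not call the gene on that scale. H2O2 libraries held 173, 185 and 228 CPM, all below Blank, a difference of -0.34 that was not called (edgeR adjusted p = 0.146). Without the 4 libraries it was -0.49 and called (edgeR adjusted p = 0.000225).

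Enpp1, the ectoenzyme that cleaves ATP to pyrophosphate (ENSMUSG00000037370, chromosome 10, 24513812 to 24588057, minus strand), had 4.61, 3.11 and 5.11 CPM in Dox, against 2.55, 2.71 and 1.28 CPM in Blank. The groups did not overlap, and the log2 difference of 0.96 missed the threshold (edgeR adjusted p = 0.0655). It passed under 5 of 17 alternatives, with adjusted p between 0.0271 and 0.354 over all of them. H2O2 libraries, at 3.38, 1.67 and 3.57 CPM, overlapped Blank.

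The ligand Bmp4 (ENSMUSG00000021835, chromosome 14, 46620977 to 46628126, minus strand) had 10.2, 10.2 and 15.2 CPM in Dox and 7.47, 12.5 and 17.6 CPM in H2O2, against 6.66, 7.64 and 10.4 CPM in Blank. Both inducers overlapped Blank, and the differences of 0.53 and 0.61 were not called (edgeR adjusted p = 0.167 and 0.306). The Dox difference passed under 3 of 17 alternatives. Bmp2, the ligand most often tied to osteogenic change in vessels (ENSMUSG00000027358, chromosome 2, 133394079 to 133404805, plus strand), was barely detected. Raw counts of Bmp2 were 7, 0 and 2 in Dox and 0, 0 and 0 in H2O2, against 4, 0 and 14 in Blank. These counts give no usable fold, and a count of 0 allows up to 3 reads per library.

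Runx2, the transcription factor that commits cells to bone (ENSMUSG00000039153, chromosome 17, 44806874 to 45125684, minus strand), was not higher under either inducer. It had 9.51, 9.85 and 10 CPM in Dox, against 10.3, 13.7 and 17.3 CPM in Blank, so that every Dox library lay below Blank. The log2 difference was -0.49, with an interval of -0.91 to -0.07 before adjustment for many genes (edgeR adjusted p = 0.0905), and it passed under 2 of 17 alternatives. H2O2 libraries, at 8.46, 10.5 and 12 CPM, overlapped Blank, and the difference of -0.41 had an interval of -0.84 to 0.01 (edgeR adjusted p = 0.386).

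Sox9, the transcription factor of cartilage formation (ENSMUSG00000000567, chromosome 11, 112673050 to 112678586, plus strand), had 7.85, 4.22 and 6.92 CPM in Dox, against 15.9, 13.1 and 9.54 CPM in Blank. The ranges were separate, and Sox9 fell 2.03-fold under Dox (log2 difference -1.02, edgeR adjusted p = 0.0231). That call was lost without Blank1 (edgeR adjusted p = 0.104), without Dox library 2 (0.113) or without Dox library 3 (0.0549). H2O2 libraries held 10.3, 10.9 and 13 CPM, inside the Blank range, and the difference of -0.17 was not called (edgeR adjusted p = 0.879). Msx2, a homeobox factor of skull and vessel mineralisation (ENSMUSG00000021469, chromosome 13, 53620920 to 53627110, minus strand), had 0 counts in 17 libraries and 3 counts in H2O2 library 1.

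Counted over the 9 tested members, 2 were called higher (Spp1 and Alpl) and 3 lower (Mgp, Sox9 and Ank) in Dox against Blank, where edgeR called 21.7% of all tested genes (10.3% higher and 11.4% lower). Their ranges were separate for 7 of 9, against 36.1% of all tested genes. The members' median log2 difference was -0.41, beside 0.08 over all genes. In H2O2 against Blank, 2 of 9 were called, both higher, where 1.43% of all genes were called (0.636% higher and 0.793% lower), and 3 of 9 had separate ranges against 13.7%. Both comparisons use the same 3 Blank libraries. The members were chosen with earlier results of these data known, so these shares are no test of the members as a set. In Dox against H2O2, Spp1 alone was called of the 9, where 13.1% of all genes were (6.73% higher and 6.33% lower), and 3 of 9 had separate ranges against 32.6%. Mgp and Sox9 were the other members with separate ranges there, with log2 differences of -1.02 and -0.85 that missed the threshold (edgeR adjusted p = 0.0561 and 0.0813). Mgp passed under 10 and Sox9 under 4 of 16 alternatives. Enpp1 differed by 0.58, Alpl by -0.10, Bmp4 by -0.08, Runx2 by -0.08 and Ank by -0.07, with overlapping ranges and none called.

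Isoliensinine did not shift any member past the threshold in the comparison with its own inducer. Spp1 had 118, 107 and 119 CPM in D_I, against 158, 129 and 139 CPM in Dox, and the ranges were separate. The log2 difference of -0.31 had an interval of -0.71 to 0.09 (edgeR adjusted p = 0.999), and in a fit on those groups alone it was -0.33 with edgeR adjusted p = 0.0374, among 263 genes called there. Over the members, 0 of 9 were called in D_I against Dox, where 0% of all genes were, and 4 of 9 had separate ranges against 18.8%. Runx2 was lower in every D_I library, at 8.53, 8.75 and 8.63 CPM against 9.51, 9.85 and 10 CPM in Dox, a difference of -0.18 that was not called (edgeR adjusted p = 0.999). Mgp had 140, 144 and 186 CPM in D_I, against 138, 135 and 110 CPM in Dox, a difference of 0.30 that was not called (edgeR adjusted p = 0.999). Ank, the other member with separate ranges, had 195, 193 and 194 CPM in D_I, against 190, 176 and 193 CPM in Dox, a difference of 0.06. Sox9, at 7.53, 8.81 and 7.5 CPM in D_I, differed from Dox by 0.32 and Enpp1 by 0.26. Bmp4, at 9.96, 11.3 and 9.83 CPM in D_I, differed by -0.20 and Alpl by -0.06, and those 4 ranges overlapped Dox. Bmp2 had 0, 4 and 0 counts in D_I, against 7, 0 and 2 in Dox.

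In H_I, Spp1 had 62.4, 68.3 and 69.1 CPM, against 69.9, 76.4 and 66.6 CPM in H2O2. Those ranges overlapped, and the difference of -0.09 had an interval of -0.5 to 0.32 (edgeR adjusted p = 0.963). Of 9 members 0 were called, where 0% of all genes were, and 3 of 9 had separate ranges against 12.1%: Sox9, Ank and Bmp2. Sox9 had 9.89, 10.2 and 8.64 CPM in H_I, against 10.3, 10.9 and 13 CPM in H2O2 (log2 difference -0.25, edgeR adjusted p = 0.931). Ank had 156, 171 and 170 CPM in H_I, against 173, 185 and 228 CPM in H2O2 (-0.24, edgeR adjusted p = 0.726). Bmp2 had 13, 9 and 7 counts in H_I, against 0, 0 and 0 in H2O2, and was not called (edgeR adjusted p = 0.554). The colon and liver marker sums also differed there. Colon markers summed to 250 to 808 CPM in H_I against 50 to 185 CPM in H2O2, and liver markers to 167 to 458 CPM against 66.3 to 174 CPM. By group, the library with the most Bmp2 counts had the highest colon sum in H_I, B_I and Dox. These were H_I1 with 13 counts at 808 CPM, B_I1 with 15 at 280 CPM and Dox library 1 with 7 at 269 CPM. In Blank and D_I that library had the lowest colon sum. Blank4 had 14 counts at 60.9 CPM and D_I library 2 had 4 at 164 CPM. The part of colon or liver RNA in the Bmp2 counts was not tested. The other members overlapped and were not called. Mgp had 180, 260 and 231 CPM in H_I and differed from H2O2 by -0.21, or by 0.29 without the 4 libraries. Runx2 differed by -0.31, Bmp4, at 12.7, 9.68 and 9.51 CPM in H_I, by -0.24, Alpl, at 11.6, 12 and 13.6 CPM, by -0.16, and Enpp1, at 3.17, 2.96 and 3.37 CPM, by 0.14.

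Given alone, isoliensinine left Spp1 at 29.2, 20.1 and 20.8 CPM in B_I, against 39.9, 30.8 and 16.5 CPM in Blank. The ranges overlapped, with a log2 difference of -0.32 and an interval of -0.74 to 0.11 (edgeR adjusted p = 0.998). Of 9 members 0 were called, where 0% of all genes were, and 0 of 9 had separate ranges against 7.29%. Alpl had 8.73, 12.7 and 12.8 CPM in B_I, against 7.04, 6.1 and 8.87 CPM in Blank, a difference of 0.64 with an unadjusted p of 0.00442 (edgeR adjusted p = 0.917). Ank had 179, 179 and 234 CPM in B_I, against 252, 258 and 231 CPM in Blank, a difference of -0.33 (edgeR adjusted p = 0.967). Without Blank4 and B_I3, the Ank difference was -0.51 and not called (edgeR adjusted p = 0.0749). Without all 4 libraries that stood apart, it was -0.50 and called (edgeR adjusted p = 0.00177). H_I1 and H2O2 library 3 are in neither of these groups and enter only through the shared fit. Sox9 had 12.1, 7.87 and 3.59 CPM in B_I, against 15.9, 13.1 and 9.54 CPM in Blank, with its lowest level of each group in B_I3 and Blank4 (difference -0.71, edgeR adjusted p = 0.998). The Sox9 difference was -0.35 without B_I3, -0.88 without Blank4 and -0.53 without the 4 libraries. Mgp had 164, 197 and 406 CPM in B_I, against 309, 250 and 471 CPM in Blank, a difference of -0.42 that was -0.91 without B_I3, -0.13 without Blank4 and -0.61 without the 4 libraries. Bmp4, at 10.4, 9.55 and 9.95 CPM in B_I, differed from Blank by 0.28, Enpp1 by 0.11 and Runx2 by -0.03, with overlapping ranges. Enpp1 was at -0.23 and Runx2 at 0.19 without the 4 libraries. Bmp2 had 15, 0 and 2 counts in B_I, against 4, 0 and 14 in Blank.

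Beside these counts of 0 over all genes, edgeR had 556 genes at an unadjusted p under 0.05 for D_I over Dox, 915 for H_I over H2O2 and 640 for B_I over Blank, and DESeq2 called 18, 81 and 1 genes in those comparisons.

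Whether isoliensinine acted differently with an inducer than without was tested as an interaction. For Spp1 the change under isoliensinine with Dox exceeded that without by 0.01 on the log2 scale (interval -0.57 to 0.58, edgeR adjusted p = 1), and with H2O2 by 0.22 (-0.37 to 0.82, edgeR adjusted p = 0.934). For both interactions 0 of 9 members and 0% of all genes were called, with 522 and 813 genes at an unadjusted p under 0.05 and 3 and 2 genes called by DESeq2. Alpl had interactions of -0.70 with Dox and -0.80 with H2O2, at unadjusted p of 0.0198 and 0.00957 (edgeR adjusted p = 1 and 0.765). Sox9 had an interaction with Dox of 1.03 (interval 0.11 to 1.96, edgeR unadjusted p = 0.0305). That of Ank was 0.39 (interval 0.06 to 0.72, edgeR unadjusted p = 0.0233), and neither was called. Mgp had an interaction with Dox of 0.72, which was not called either. Without the 4 libraries, left out after seeing the data, Ank and Mgp had interactions with Dox of 0.55 and 0.90. Both were called (edgeR adjusted p = 0.00781 and 0.0385), among 76 genes called there. Without Blank4 and B_I3 alone they were 0.56 and 0.91, and neither was called. H_I1 and H2O2 library 3 are in none of the groups compared and enter only through the shared fit. Each of the Ank and Mgp interactions with Dox was called under 1 of 23 alternatives.

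**Figure D2:**
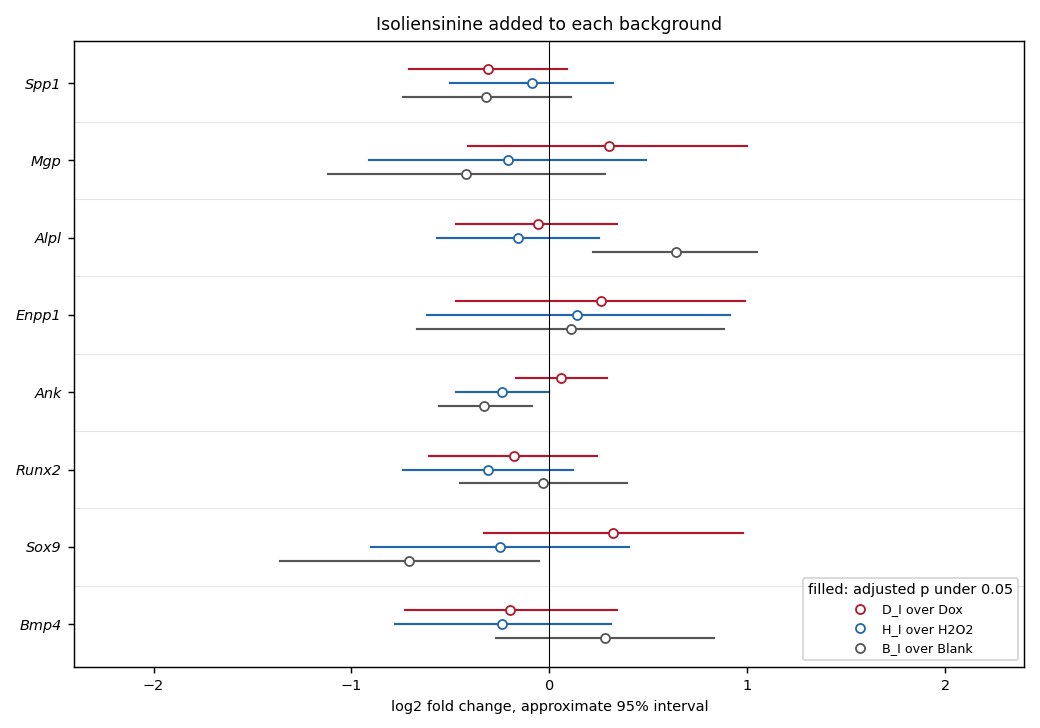
Log2 differences of the members with a usable fold between isoliensinine-treated cells and their counterparts (D_I over Dox, H_I over H2O2, B_I over Blank), with bars for 95% intervals. No point is filled, since edgeR called none, and Spp1 lies at -0.31, -0.09 and -0.32.

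D_I and H_I were also compared with B_I, so that the group means of Dox, H2O2 and Blank did not enter. The spread, scaling and filter were still taken from all 18 libraries, and both comparisons use the same 3 B_I libraries. Spp1 had 118, 107 and 119 CPM in D_I and 62.4, 68.3 and 69.1 CPM in H_I, against 29.2, 20.1 and 20.8 CPM in B_I. The 3 groups did not overlap, and Spp1 rose 4.89-fold in D_I (log2 difference 2.29, interval 1.86 to 2.72, edgeR adjusted p = 2.5e-07) and 2.85-fold in H_I (1.51, interval 1.08 to 1.93, edgeR adjusted p = 0.00078). In D_I against B_I, 2 of 9 members were called higher and 1 lower, where edgeR called 18.8% of all genes (9.41% higher and 9.41% lower), and 3 of 9 had separate ranges against 38.1%. In H_I against B_I, Spp1 alone of the 9 was called, where 1.46% of all genes were (0.464% higher and 0.994% lower), and 4 of 9 had separate ranges against 23.2%.

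Enpp1 had 5.42, 5.42 and 4.54 CPM in D_I, against 1.69, 2.78 and 2.63 CPM in B_I, and was 2.17-fold higher (log2 difference 1.12, edgeR adjusted p = 0.0362). That call was lost when any 1 of the 6 libraries was left out (edgeR adjusted p 0.0579 to 0.119). Runx2 had 8.53, 8.75 and 8.63 CPM in D_I, against 15.2, 12.1 and 13.2 CPM in B_I, and was 1.56-fold lower (log2 difference -0.64, edgeR adjusted p = 0.0308). The Runx2 call was lost under 7 of 17 alternatives. Runx2 was also lower in every H_I library, at 7.89, 9.19 and 7.89 CPM, with a difference of -0.70 from B_I that missed the threshold (edgeR adjusted p = 0.09). Enpp1 and Ank were the other members with separate ranges in H_I against B_I, at log2 differences of 0.42 and -0.25 (edgeR adjusted p = 0.584 and 0.253). Alpl differed there by 0.12 and Bmp4 by 0.09, with overlapping ranges. Mgp differed by -0.19 and Sox9 by 0.28, and without the 4 libraries by 0.43 and -0.09.

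Mgp, Alpl, Ank and Sox9, called in Dox against Blank, were not called in D_I against B_I. Mgp had 140, 144 and 186 CPM in D_I, against 164, 197 and 406 CPM in B_I, a difference of -0.71 (edgeR adjusted p = 0.16), which was -0.24 without B_I3. Alpl differed by 0.11 (edgeR adjusted p = 0.755), with 13.2, 12.7 and 11.1 CPM in D_I against 8.73, 12.7 and 12.8 CPM in B_I. Ank differed by -0.02, Sox9 by 0.01 and Bmp4 by 0.06, while without B_I3 Ank was at 0.09 and Sox9 at -0.36. The test of the difference between these comparisons is the interaction with Dox given above, where edgeR called 0 of 9 members.

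**Figure D3:**
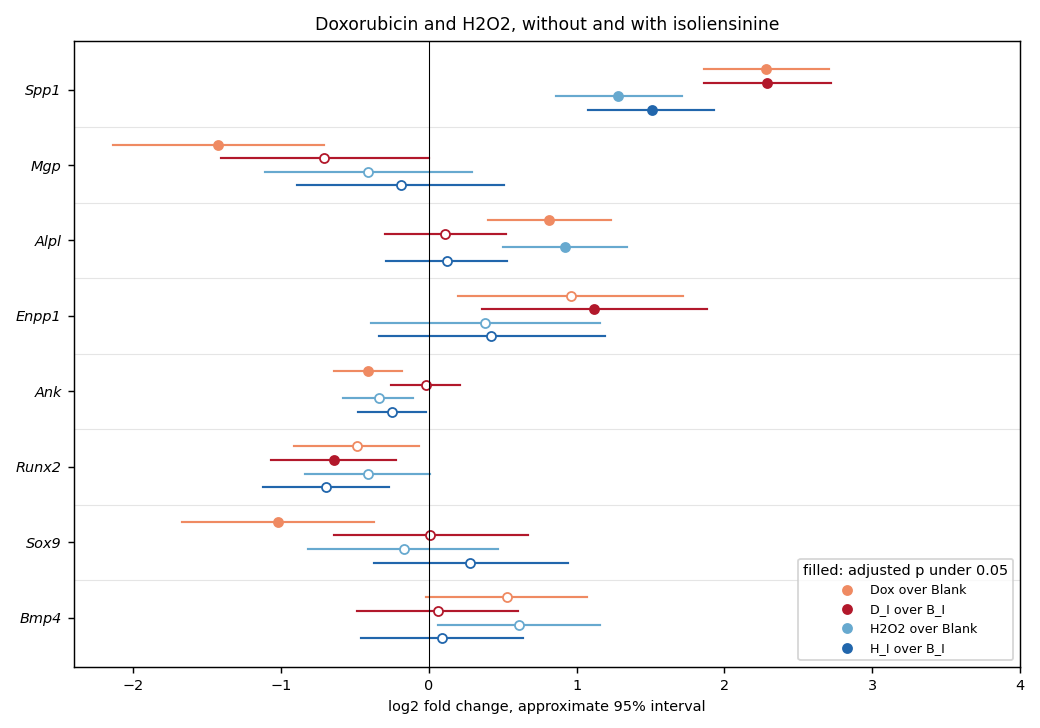
Log2 differences of the 8 members with a usable fold for Dox over Blank, D_I over B_I, H2O2 over Blank and H_I over B_I, with bars for 95% intervals and filled points for genes called by edgeR. Spp1 is filled in all 4 comparisons, at 2.28, 2.29, 1.28 and 1.51, while Mgp, Sox9 and Ank are filled in the Dox over Blank comparison alone, at -1.43, -1.02 and -0.41.

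The wider pathway was described with 9 lists of genes grouped by function, which leave out the 10 members. Of all tested genes, edgeR called 10.3% higher and 11.4% lower under Dox, and 0.636% and 0.793% under H2O2. Of 10 tested bone and cartilage matrix genes (20 listed), 3 were called lower and 0 higher in Dox against Blank, and likewise in H2O2 against Blank. The list's median log2 difference was -0.58 under Dox but 0.16 under H2O2, beside 0.08 and -0.02 over all genes. Sparc, osteonectin, averaged 1938 ± 51.4 CPM in Dox and 5738 ± 369 CPM in Blank (log2 difference -1.57, edgeR adjusted p = 1.05e-09), and 3406 ± 195 CPM in H2O2 (-0.75, edgeR adjusted p = 0.000246). Col11a1, a fibrillar collagen of cartilage, and Bgn, the proteoglycan biglycan, changed by -1.54 and -0.74 under Dox and by -0.90 and -0.56 under H2O2. Among isoliensinine-treated cells, 3 of the 10 were called lower in D_I and 2 in H_I against B_I, beside 9.41% and 0.994% of all tested genes. Bglap2, an osteocalcin gene with a near-identical copy, was called higher in D_I against B_I on 3, 15 and 3 counts against 0, 0 and 0, too few for a fold.

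Of the osteochondrogenic transcription factors, 2 of 13 were called higher and 1 lower in Dox against Blank, beside 10.3% and 11.4% of all tested genes. Their medians were -0.08 under Dox and 0.12 under H2O2. Nfatc1 and Atf4 rose by 0.48 and 0.41 and Tcf7 fell by 0.69 on the log2 scale, and in H2O2 against Blank Atf4 alone of the list was called (0.72, edgeR adjusted p = 0.00523). Atf4 is a stress-responsive factor that also serves osteoblasts. BMP ligands and relatives had 3 of 7 called higher under Dox and 0 under H2O2, with medians of 0.94 and 0.87. Inhba, an activin subunit, averaged 4.48 ± 1.06 CPM in Dox and 1.89 ± 0.294 CPM in Blank (1.24, edgeR adjusted p = 0.0313). Gdf15, a stress-induced relative of the BMPs, averaged 16.6 ± 3.43 CPM in Dox and 8.63 ± 1.17 CPM in Blank (0.94, edgeR adjusted p = 0.0104). Bmp8a had 36, 17 and 24 counts in Dox against 0, 1 and 1 in Blank.

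BMP receptors and SMADs had 1 of 15 called higher and 1 lower under Dox and 0 called under H2O2, with medians of 0.24 and -0.09. For this and the next 2 lists, the shares of all tested genes were 10.3% higher and 11.4% lower under Dox. Under H2O2 they were 0.636% and 0.793%. Acvrl1, the type I receptor ALK1, averaged 5.14 ± 0.896 CPM in Dox and 0.81 ± 0.472 CPM in Blank (2.66, edgeR adjusted p = 0.0105), and Acvr2b fell by 1.37 on the log2 scale. BMP antagonists had 3 of 13 called higher under Dox and 1 under H2O2, with medians of 0.59 and 0.41. Bmper, a secreted BMP-binding protein, averaged 20.4 ± 4.18 CPM in Dox and 19.9 ± 5.09 CPM in H2O2, against 8.83 ± 2.44 CPM in Blank (log2 differences 1.2 and 1.17, edgeR adjusted p = 0.00137 and 0.0197). Of 8 BMP target genes, edgeR called 0 under either inducer, with medians of 0.20 and 0.16.

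Phosphate and pyrophosphate genes had 2 of 17 called higher and 2 lower under Dox, beside 10.3% and 11.4% of all tested genes. Their median was -0.17 under either inducer. Ppa1 and Ppa2, the cytosolic and mitochondrial pyrophosphatases, changed by 0.77 and -0.87, Xpr1, a phosphate exporter, by 0.66, and Slc29a1, a nucleoside transporter, by -0.68. Ppa1 alone of the list was called under H2O2, at 0.52 (edgeR adjusted p = 0.0182). A list of inhibitors of soft tissue calcification, vitamin K cycle genes and related genes such as annexins had 2 of 15 called higher and 5 lower under Dox. Under H2O2 1 was called higher, and the medians under Dox and H2O2 were -0.15 and -0.03. Timp3, an inhibitor of matrix metalloproteinases, rose by 0.50 under Dox and by 0.53 under H2O2, and Axl, a receptor of Gas6, rose by 0.37 under Dox. Tyro3, a relative of Axl, fell by 0.63, Fetub by 0.62 and Anxa5, annexin A5, by 0.48 under Dox.

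Receptors and processing enzymes of osteopontin had 2 of 12 called higher and 2 lower under Dox, beside 10.3% and 11.4% of all tested genes. Under H2O2 0 were called, and the medians under Dox and H2O2 were -0.27 and -0.10. Itgb1 averaged 180 ± 40.2 CPM in Dox and 114 ± 19.3 CPM in Blank (0.65, edgeR adjusted p = 0.0048), and Cd44, a receptor of osteopontin and hyaluronan, rose by 0.43. Itgb3, the beta subunit of the vitronectin receptor, averaged 4.81 ± 0.498 CPM in Dox and 10.2 ± 2.65 CPM in Blank (-1.09, edgeR adjusted p = 0.00948), and Itgb5 fell by 0.65. In the comparisons of isoliensinine with its own counterpart (D_I with Dox, H_I with H2O2, B_I with Blank), edgeR called 0 genes of the 9 lists.

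**Figure D4:**
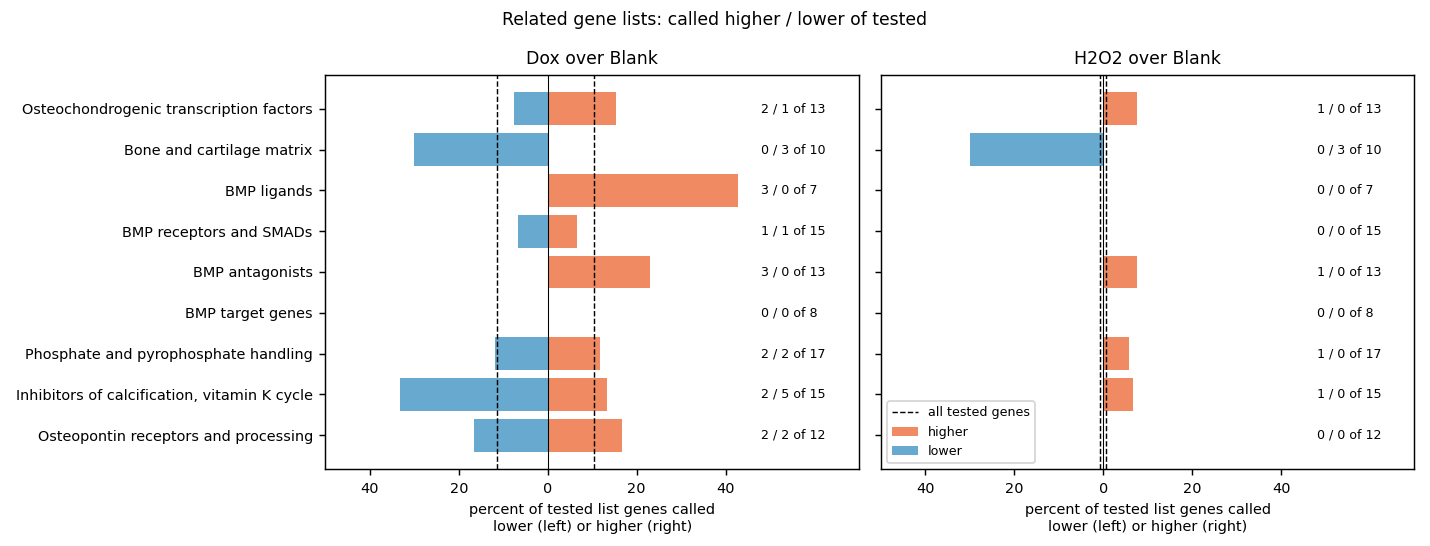
Percent of the tested genes of each of the 9 pathway lists that edgeR called lower (bars to the left) or higher (bars to the right) in Dox over Blank and in H2O2 over Blank, with the number called higher, the number called lower and the number tested printed beside each row. Dashed lines mark all tested genes (10.3% higher and 11.4% lower under Dox, 0.636% and 0.793% under H2O2), and the bone and cartilage matrix row has 3 of 10 genes lower and 0 higher in both panels.

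Likeness to Spp1 and Alpl, the 2 members called in the most comparisons (5 and 2 of 8), was measured as the root mean square distance of log2 CPM, centred per gene, over all 18 libraries. Nearest to Spp1 were Cdkn1a at 0.33, Ccnd1 at 0.35 and Arl4c at 0.35, where the median gene stood at 1.04. Cdkn1a, the gene of the cyclin-dependent kinase inhibitor p21, was 2.18 above Blank in D_I, 2.19 in Dox, 1.17 in H_I, 1.17 in H2O2 and 0.23 in B_I on the log2 scale. Nearest to Alpl were Hagh at 0.20, Atf4 at 0.20 and Klc1 at 0.21, with a median gene at 0.50.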

How the data were processed

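Messenger RNA was isolated on poly-T beads and made into libraries with random priming and PCR, per the labels' protocols, which leave strand unstated. Per the submitters' processing notes, the tools included HTSeq 0.9.1, HISAT2 2.1.0 and fastp 0.22.0, with no roles given, and no source used here names the genome build. The deposited table holds whole-number read counts per gene and library, per the file headers, and FPKM values made by the authors. Recomputed from counts, gene lengths and library totals, 100% of the FPKM values matched to a relative tolerance of 1e-06. The 51 genes without a symbol held 0.0187% of counts and were kept under their identifiers, and 0 columns of other samples were present.

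Counts of all 18 libraries were fitted in edgeR 4.0.16 (R 4.3.3) with TMM scaling, edgeR's filter on low counts by group and a robust quasi-likelihood test of group means (biological coefficient of variation 0.219), adjusted by Benjamini and Hochberg over 13375 genes. Standard errors and 95% intervals were derived from the log2 fold change and its F statistic, and cover no adjustment for many genes. Alternatives used DESeq2 1.42.0, limma 3.58.1 on log2(FPKM + 1) and log2(FPKM + 0.1), other scalings, other filters, fewer groups, a replicate block and fewer libraries. The scripts were tested on simulated counts. Replicates were distinct libraries (smallest chi-square per degree of freedom between a pair 5.51).

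The members are described in every pairwise comparison, by a log2 difference for the 8 with a usable fold, and for each pathway list up to 3 called genes in each direction with the largest log2 difference could be named. Bmp2 and Msx2 are given as raw counts, and Bglap2 and Bmp8a too. The members and gene lists were chosen with earlier results of these data known. Totals of 12859609 to 23284077 counts set the precision of low genes, and a count of 0 allows up to 3 reads per library, which covers counting error only.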

Additional observations from a re-analysis of the deposited data

How the results depend on the processing

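Across 80 member results and 1419 alternatives, 1278 kept direction and side of the threshold, 28 lost a call, 34 gained one and 79 changed sign, 0 of the last among called results. The Spp1 calls in Dox against Blank, Dox against H2O2, D_I against B_I and H_I against B_I held in every alternative, as did Alpl and Mgp in Dox against Blank. Sox9 and Ank in Dox against Blank were not called by limma on either FPKM scale, and Ank was not called without Dox library 2 (edgeR adjusted p = 0.0527). FPKM carries no TMM scaling: limma on log2(FPKM + 0.1) put the median of all genes in Dox against Blank at 0.25 and on log2(FPKM + 1) at 0.12, beside 0.08 in edgeR, and 72% and 72.6% of its calls were higher, beside 47.4% in edgeR, so that Ank at -0.23 lay below those medians. In D_I against B_I the medians were 0.24 and 0.12.

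Members called in Dox against H2O2 numbered 1 in the fit described above. They were 2 with RLE size factors, upper-quartile scaling, a filter of 5 CPM or limma on either scale, and 3 with DESeq2, only the groups compared, the replicate block or without the 4 libraries that stood apart, the last chosen after seeing the data. H2O2 against Blank had 0 of its 2 with only the groups compared. D_I against Dox had 1 with only the groups compared. D_I against B_I had 1 of its 3 with no low-count filter. H_I against B_I had 2 with DESeq2 and with the replicate block, B_I against Blank 1 and the interaction with Dox 2 without the 4 libraries. Dox against Blank had 5, which became 7 with DESeq2 and 6 with the 5 CPM filter or without the 4 libraries, as Enpp1 gained a call under 5, Bmp4 under 3 and Runx2 under 2 of 17 alternatives. Leaving out each library in turn gave 4 to 5 members called in Dox against Blank, 1 to 2 in H2O2 against Blank, Dox against H2O2 and D_I against B_I, and 1 in H_I against B_I. The causes were not tested.

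Counts over all genes moved by over 1.5 times as follows. DESeq2 gave 411 in H2O2 against Blank (191 in edgeR), 530 in H_I against B_I (195), 81 in H_I against H2O2, 18 for D_I over Dox, 1 for B_I over Blank, and 3 and 2 for the interactions with Dox and H2O2, each 0 in edgeR. Limma on log2(FPKM + 0.1) and on log2(FPKM + 1) both gave 411 in H2O2 against Blank, and 294 and 314 in H_I against B_I. Only the groups compared gave 5 in H2O2 against Blank, 35 in H_I against B_I and 263 in D_I against Dox. With no low-count filter there were 2 for D_I over Dox, 1 for B_I over Blank and 1 for the interaction with Dox. Without Blank4 and B_I3 there were 526 for H2O2 over Blank, 3 for B_I over Blank and 8 for the interaction with Dox. Without the 4 libraries there were 689, 520, 58 and 53 in H2O2 against Blank, H_I against B_I, H_I against H2O2 and B_I against Blank, and 76 and 63 for the interactions. Leaving out each library gave 1876 to 2869 in Dox against Blank, 845 to 1741 in Dox against H2O2, 94 to 259 in H2O2 against Blank, 1615 to 2545 in D_I against B_I, 37 to 424 in H_I against B_I, 0 to 10 for H_I over H2O2, 0 to 4 for B_I over Blank and 0 to 4 for the interaction with Dox.

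Correlations between same-numbered libraries were low, at -0.19 to 0.28, so the numbers were not read as pairs. The highest was for number 1 in B_I against Blank. Library 1 held the highest colon marker sum in B_I, Blank, H_I and Dox, and library 3 in D_I and H2O2. A shared batch of same-numbered libraries was not tested. Blank4 has no library of the same number and was not compared with B_I3. A link between those libraries, which stood apart in the same direction, was therefore not tested. The replicate block, in which Blank4 keeps its own number and so drops out in effect, gave 616 genes for H_I over B_I, 4 for D_I over Dox, 2 for H_I over H2O2 and 3 for the interaction with Dox.

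Sign changes were among differences that were not called. In B_I against Blank, Enpp1 was -0.23 and Runx2 0.16 with the replicate block, -0.23 and 0.18 without Blank4 and B_I3, and -0.23 and 0.19 without the 4 libraries. In D_I against B_I, Ank was 0.15 under both limma scales, 0.08 and 0.09 under those exclusions, and Sox9 was -0.03 with DESeq2 and with RLE factors, -0.01 with the 5 CPM filter, no filter or only the groups compared, and -0.37 and -0.36 under the exclusions. In H_I against B_I, Mgp was 0.07 under both limma scales and 0.32 and 0.43 under the exclusions, Sox9 -0.05 and -0.09, and Bmp4 -0.07 without the 4 libraries. In Dox against H2O2, Bmp4 was 0.04 and 0.03 under limma and 0.21 without the 4 libraries, where Ank was 0.03 and Runx2 0.01. Without the 4 libraries, Enpp1 was -0.05 in H2O2 against Blank and Mgp 0.29 in H_I against H2O2. The Spp1 interaction with Dox was -0.01 with the 5 CPM filter and upper-quartile scaling and -0.08 under both limma scales.

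For the members whose sign changed under any alternative, leaving out each library gave these ranges. In D_I against B_I, Alpl spanned -0.05 to 0.18, Ank -0.11 to 0.09, Bmp4 -0.01 to 0.09 and Sox9 -0.36 to 0.47. In H_I against B_I, Alpl spanned -0.04 to 0.23, Bmp4 -0.04 to 0.16, Mgp -0.43 to 0.31 and Sox9 -0.06 to 0.74. In B_I against Blank, Enpp1 spanned -0.16 to 0.30 and Runx2 -0.20 to 0.16. In Dox against H2O2, Ank spanned -0.14 to 0.06, Bmp4 -0.33 to 0.25 and Runx2 -0.20 to 0.05. In H_I against H2O2, Bmp4 spanned -0.50 to 0.08, Enpp1 -0.13 to 0.33 and Mgp -0.41 to 0.18. Bmp4 in D_I against Dox spanned -0.30 to 0.02, and Enpp1 and Sox9 in H2O2 against Blank 0.13 to 0.66 and -0.34 to 0.01. The interactions with Dox spanned -0.04 to 0.42 for Enpp1, -0.35 to 0.01 for Runx2 and -0.29 to 0.28 for Spp1, and those with H2O2 -0.24 to 0.31 for Enpp1, -0.06 to 0.71 for Mgp and -0.07 to 0.51 for Spp1.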
